A study of Homo sapiens with 9 samples.

Results

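Transcripts of 30 genes for the synthesis, uptake, transport and export of cholesterol were followed in 143B cells, an established human osteosarcoma line, before and during exposure to XD23. The genes were chosen by symbol from a table of 36810 genes. They are 4 control genes of the SREBP2 transcription factor, 8 genes of the mevalonate arm, 11 enzymes from squalene to cholesterol, 5 genes of uptake, transport and esterification, and 2 export pumps. All 30 were present, and 29 passed the filter of at least 1 FPKM in at least 3 libraries. FPKM counts the fragments of a gene per length of the gene, scaled to the library's total. The control group was labelled 0 h, and the other groups received 0.5 µM XD23 for 24 h or 48 h, with 3 libraries in each group. The times are those of the sample titles and the treatment protocol, while the series' design text speaks of 48 h alone. XD23 has only this code name in the labels. The series presents it as an osteosarcoma inhibitor acting on DKK1 and Wnt signalling.

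Animal cells make cholesterol from acetyl-CoA through mevalonate, farnesyl diphosphate, squalene and lanosterol. When membranes of the endoplasmic reticulum hold little sterol, SCAP carries the precursor of SREBP2 to the Golgi, where proteases release its active part, and the genes of synthesis and uptake are transcribed. When sterol is plentiful, INSIG proteins keep SCAP in place. Oxysterols, which form when cholesterol is in excess, instead activate the LXR receptors and with them the export pumps ABCA1 and ABCG1 and the ubiquitin ligase MYLIP, which removes lipoprotein receptors.

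The libraries held 18341542 to 22901830 fragments. Mesenchymal markers were uneven, with VIM at 297 to 389 FPKM and the bone matrix gene SPARC at 27.6 to 43.3, while COL1A1, COL1A2 and ALPL, which mark osteoblasts, stayed below 1 FPKM in every library. RUNX2 was at 4.06 to 6.61 FPKM and FN1 at 8.98 to 14.1. Of 11 marker genes of leukocytes, endothelium, epithelium and hepatocytes found in the table, 9 were below 1 FPKM throughout, whereas the epithelial genes EPCAM and KRT18 reached 4.69 and 182 FPKM. The endothelial gene PECAM1 was the highest of the 9, at up to 0.699 FPKM, the leukocyte gene PTPRC reached 0.0145, and CD3E and CDH1 were not analysed here. The summed level of those 9 markers was 0.644 to 0.708 FPKM in control, 0.372 to 0.643 at 24 h and 0.721 to 1.00 at 48 h, and their part in the results was not tested. The third library at 24 h stood apart. Its differences from the others of its group had 10.1 and 11.3 times the variance of counting noise (chi-square per degree of freedom). The other pairs of replicates had 2.17 to 3.77 times that variance. No untreated culture at 24 h or 48 h and no vehicle is among the labels, so time in culture and the compound cannot be told apart. Whether replicates were separate cultures is not stated, so the p-values measure only the spread between these libraries. In RNA from whole cultures, fewer expressing cells and less RNA per cell cannot be told apart.

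After 48 h with XD23, 13 of the 29 tested genes rose and 2 fell, and 14 were not called. A call is an adjusted p under 0.05 in limma, a linear model fitted to log2(FPKM + 1) of all 13657 tested genes. Across all tested genes 28.5% were called, 13.3% higher and 15.2% lower. The median change of the 29 genes was 0.14 on the log2 scale, against -0.02 for all genes tested. The genes that rose were SREBF2, INSIG1, INSIG2, HMGCS1, MVD, IDI1, FDFT1, SQLE, MSMO1, SC5D, DHCR7, NPC1 and STARD4. The genes that fell were ABCA1, which pumps cholesterol out of the cell, and SOAT1, which esterifies it for storage. For each of these 15 genes the 3 libraries at 48 h lay wholly above or wholly below the 3 controls, as did 22.7% (above) and 27.7% (below) of all genes. Counting genes that were not called, 16 lay wholly above control and 5 wholly below. At an unadjusted p under 0.05 there were 16, against 40.1% of all genes. Each of the 15 calls held in every alternative that tested the gene, other than the added fold threshold.

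**Figure D1:**
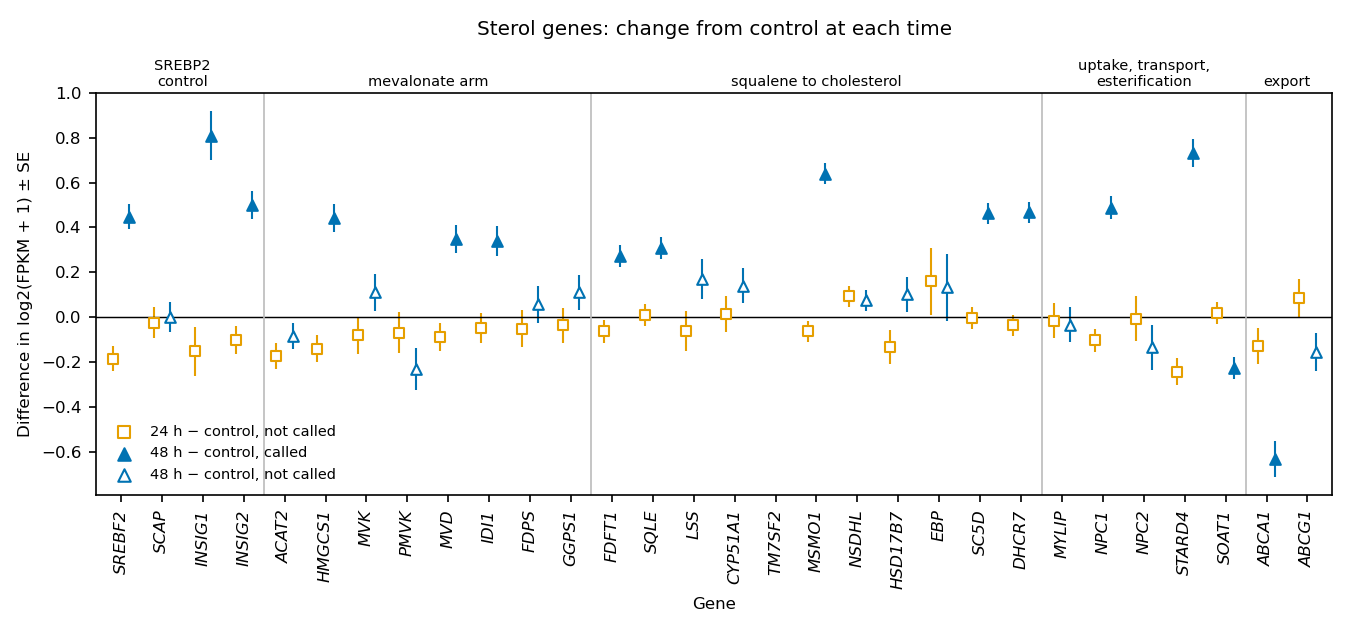
Change from control in log2(FPKM + 1) for the sterol genes at 24 h (squares) and 48 h (triangles), with bars for 1 standard error and filled symbols for called genes. The 13 genes that rose at 48 h lie between 0.27 and 0.81, ABCA1 lies at -0.63, no square is filled, and TM7SF2 has no point because it was not tested.

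The summed level of the 19 synthesis enzymes in the list gives the size of this change in transcripts. It was 129 to 131 FPKM in the control libraries, 123 to 129 FPKM at 24 h and 158 to 164 FPKM at 48 h. The 48 h libraries lay above all others. FDFT1 and SQLE, which make and use squalene, and MSMO1, which removes methyl groups later in the route, held the 3 highest FPKM levels, which are per gene length, among the enzymes at 48 h.

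**Figure D2:**
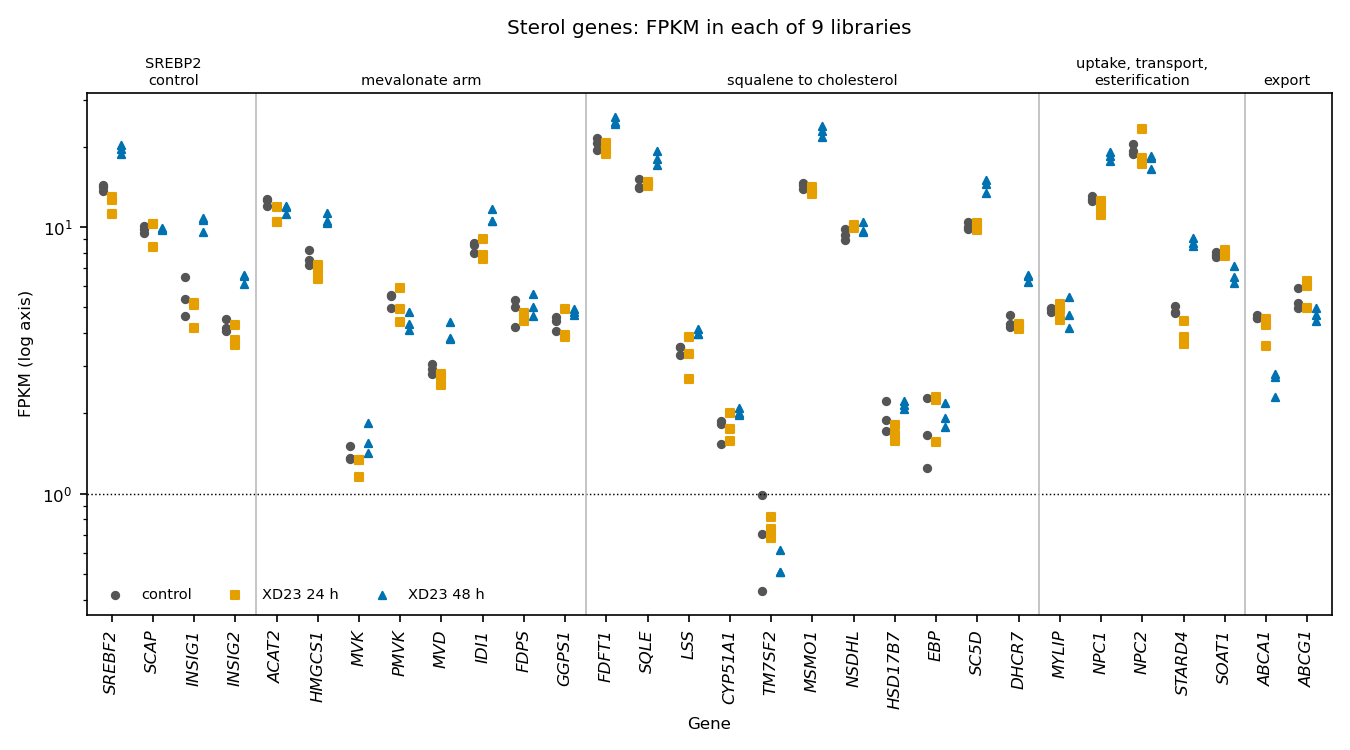
FPKM of each of the 30 genes in each of the 9 libraries on a log axis, ordered by role, with a dotted line at 1 FPKM. Levels in control run from 0.431 FPKM for TM7SF2 to 21.5 FPKM for FDFT1, and the 48 h libraries (triangles) lie above the others for 13 called genes and below them for ABCA1 and SOAT1.

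In the SREBP2 control group, 3 of 4 genes rose at 48 h, as did 13.3% of all tested genes. SREBF2 (ENSG00000198911, chromosome 22, 41833079 to 41907308, plus strand) encodes SREBP2 itself. Positions here are those of GENCODE 29 on GRCh38. SREBF2 stood at 13.6, 14.1 and 14.3 FPKM in the control libraries, 12.9, 12.6 and 11.2 at 24 h and 19.5, 20.2 and 18.7 at 48 h. The 24 h libraries were the lowest and the 48 h libraries the highest, with no overlap between groups. At 48 h the change was 0.45 ± 0.06 on the log2 scale (limma, adjusted p = 0.000752), and the mean was 1.39-fold that of control.

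INSIG1 (ENSG00000186480, chromosome 7, 155297776 to 155310235, plus strand) retains SCAP in the endoplasmic reticulum and is itself a target of SREBP2. It had 5.36, 4.63 and 6.48 FPKM in control, 4.18, 5.10 and 5.19 at 24 h and 9.53, 10.6 and 10.8 at 48 h. Control and 24 h overlapped, and all libraries at 48 h were higher. INSIG1 showed the highest change of the 29 genes, 0.81 ± 0.11 (limma, adjusted p = 0.00101), a 1.88-fold ratio of means on 316 to 889 fragments per library. INSIG2 (ENSG00000125629, chromosome 2, 118088452 to 118110997, plus strand), its relative with the same action, had 4.05, 4.17 and 4.50 FPKM in control, 3.76, 3.60 and 4.30 at 24 h and 6.12, 6.54 and 6.57 at 48 h. It rose by 0.50 ± 0.06 (limma, adjusted p = 0.000752), again with the 48 h libraries above all others. Within a library the ratio of INSIG1 to INSIG2 averaged 1.29 ± 0.167 in control, 1.24 ± 0.156 at 24 h and 1.61 ± 0.0443 at 48 h (SD, n = 3).

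SCAP, the sterol-sensing escort, was not called. Its mean was 9.78 ± 0.285 FPKM in control and 9.78 ± 0.0778 FPKM at 48 h (SD, n = 3), a difference of 0.00 ± 0.07 with a 95% interval of -0.15 to 0.15 (limma, adjusted p = 0.997). The sensor partners INSIG1 and INSIG2 and the factor SREBF2 lay above control in every 48 h library, whereas SCAP overlapped with it.

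The promoters of 5 genes are shown because 4 of them belong to the genes that rose and ABCA1 is the one with the lowest change. RefSeq (GRCh38.p14) holds start-site windows, from 250 bases before to 50 after the start, for 26 of the 30 genes, ABCG1, ACAT2, FDFT1 and SQLE being the others. Printed here are the 200 bases before the start site, 5′ to 3′ along the gene. Capitals mark the core of the sterol regulatory element, TCACCCCAC, and the NF-Y box CCAAT, which reads ATTGG on the other strand.
SREBF2, chr22:41832905-41833104, plus strand: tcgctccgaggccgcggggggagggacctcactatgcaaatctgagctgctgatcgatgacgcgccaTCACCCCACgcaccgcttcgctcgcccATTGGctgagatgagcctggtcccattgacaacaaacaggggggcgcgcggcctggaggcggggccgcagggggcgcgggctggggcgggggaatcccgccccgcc
INSIG1, chr7:155297678-155297877, plus strand: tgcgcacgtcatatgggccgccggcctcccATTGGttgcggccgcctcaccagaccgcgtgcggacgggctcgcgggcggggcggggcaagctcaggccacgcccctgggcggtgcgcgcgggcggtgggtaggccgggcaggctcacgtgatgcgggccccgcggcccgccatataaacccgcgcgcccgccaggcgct
MSMO1, chr4:165327469-165327668, plus strand: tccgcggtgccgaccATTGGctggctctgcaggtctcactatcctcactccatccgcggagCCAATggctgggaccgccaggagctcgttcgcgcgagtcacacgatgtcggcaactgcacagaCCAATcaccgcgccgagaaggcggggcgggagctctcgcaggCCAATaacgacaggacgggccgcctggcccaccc
STARD4, chr5:111512536-111512735, minus strand: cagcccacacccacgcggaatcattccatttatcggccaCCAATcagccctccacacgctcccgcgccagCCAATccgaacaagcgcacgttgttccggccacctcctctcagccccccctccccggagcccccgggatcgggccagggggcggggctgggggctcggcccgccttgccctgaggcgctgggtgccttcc
ABCA1, chr9:104928156-104928355, minus strand: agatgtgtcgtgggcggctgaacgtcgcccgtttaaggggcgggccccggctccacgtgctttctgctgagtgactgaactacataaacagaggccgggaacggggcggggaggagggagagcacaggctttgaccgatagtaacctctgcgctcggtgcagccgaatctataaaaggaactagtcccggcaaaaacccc

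Both strands of each whole window were searched for exact matches to each motif, apart from bases left free. Sites that depart from a motif or lie outside the window were not counted. A motif that was not found therefore does not show that its factor has no site there. The core TCACCCCAC of the classical SREBP element was found in the window of SREBF2, from position -133 relative to its start, and in no other window of these genes. It occurs in 0.430% of all 35116 windows. The looser TCACNCCAC occurs in 1.13% and among these genes only at that same place in SREBF2. The NF-Y box CCAAT, bound by a factor that works together with SREBP, was found in 20 of 26 genes, against 39.7% of all gene symbols with a window. By response, 9 of the 11 genes with a window that rose at 48 h held it, and 9 of the 12 that were not called. MSMO1 holds it 4 times, STARD4 2 times and ABCA1 not at all. The exact LXR repeat, AGGTCA 2 times on 1 strand with any 4 bases between, was found in none of these windows. It occurs in 0.0199% of all windows. A match so rare cannot tell whether ABCA1 or another of these genes holds a less exact LXR site, and such sites were not searched for or marked.

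In the mevalonate arm 3 of 8 genes rose at 48 h and 5 were not called, beside 13.3% of all genes that rose. HMGCS1 (ENSG00000112972, chromosome 5, 43289395 to 43313512, minus strand), the synthase that joins acetyl-CoA to acetoacetyl-CoA, had 8.22, 7.18 and 7.49 FPKM in control, 6.86, 6.39 and 7.21 at 24 h and 10.3, 11.3 and 10.6 at 48 h. The 48 h libraries were above all others, while control and 24 h overlapped. HMGCS1 rose by 0.44 ± 0.06 (limma, adjusted p = 0.00108), though 15.0% of its exon bases are shared with an antisense gene. MVD (ENSG00000167508, chromosome 16, 88651935 to 88663161, minus strand), the decarboxylase that forms isopentenyl diphosphate, had 2.93, 3.05 and 2.81 FPKM in control, 2.75, 2.55 and 2.80 at 24 h and 3.84, 3.80 and 4.40 at 48 h. Again the 48 h libraries were the highest, and MVD rose by 0.35 ± 0.06 (limma, adjusted p = 0.00362). IDI1 (ENSG00000067064, chromosome 10, 1039152 to 1049170, minus strand), the isomerase that makes the allylic partner of that unit, had 8.55, 8.72 and 7.97 FPKM in control, 7.86, 7.54 and 8.97 at 24 h and 10.5, 10.6 and 11.7 at 48 h. It rose by 0.34 ± 0.07 (limma, adjusted p = 0.00636), and 14.8% of its exon bases are shared with the antisense gene IDI2-AS1.

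The 5 other genes of this arm include both kinases that follow mevalonate. MVK, the first of them, differed from control by 0.11 ± 0.08 at 48 h (95% interval -0.08 to 0.30), from a mean of 1.40 FPKM in control. PMVK, the next, stood at 5.52, 5.54 and 4.95 FPKM in control and 4.78, 4.10 and 4.33 at 48 h. Its 48 h libraries were all below control, with a difference of -0.23 ± 0.09 that missed the threshold (limma, adjusted p = 0.095). FDPS, which builds farnesyl diphosphate, differed from control by 0.06 ± 0.08 (95% interval -0.13 to 0.24). It has 8 pseudogenes by name in GENCODE, so its reads are uncertain. GGPS1, which leads to geranylgeranyl groups and not to sterols, differed from control by 0.11 ± 0.08 (95% interval -0.07 to 0.29), and 37.3% of its exon bases are shared with TBCE. ACAT2, the thiolase at the entry of the pathway, differed from control by -0.08 ± 0.06 (95% interval -0.21 to 0.05). Its exons overlap those of SOD2, SOD2-OT1 and TCP1 on the other strand, at 26.5%, 33.9% and 9.23% of its bases, and no strand-specific counting is stated. None of the 5 intervals reaches above 0.30, the upper end for MVK.

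From squalene to cholesterol, 5 of the 10 tested genes rose at 48 h and 0 fell by limma, beside 13.3% and 15.2% of all genes. All 10 differences from control were positive, as were 6197 of the 13657 over all genes. MSMO1 (ENSG00000052802, chromosome 4, 165327623 to 165343160, plus strand) removes methyl groups from the sterol ring. MSMO1 had 13.9, 14.6 and 14.4 FPKM in control, 13.5, 13.2 and 14.1 at 24 h and 21.6, 22.9 and 24.0 at 48 h. Its 48 h libraries stood well clear of the other 6, which overlapped. The change was 0.64 ± 0.05 (limma, adjusted p = 5.84e-05), a 1.60-fold ratio of means.

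Both enzymes listed for the last steps of the route rose too. DHCR7 (ENSG00000172893, chromosome 11, 71428193 to 71452868, minus strand), the reductase of the final step of one branch, had 4.66, 4.21 and 4.30 FPKM in control, 4.32, 4.30 and 4.15 at 24 h and 6.54, 6.21 and 6.62 at 48 h. It rose by 0.47 ± 0.05 (limma, adjusted p = 0.000267). SC5D (ENSG00000109929, chromosome 11, 121292453 to 121308694, plus strand), the desaturase just before it, had 9.85, 10.02 and 10.4 FPKM in control, 10.3, 9.69 and 10.2 at 24 h and 13.4, 15.0 and 14.5 at 48 h. It rose by 0.46 ± 0.05 (limma, adjusted p = 0.000329). For both genes the control and 24 h libraries overlapped and the 48 h libraries lay above them.

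At the start of this branch, FDFT1, which makes squalene, and SQLE, which oxidises it, rose as well. FDFT1 ranged over 19.4 to 21.5 FPKM in control and 24.3 to 25.9 at 48 h, a change of 0.27 ± 0.05 (limma, adjusted p = 0.00439). SQLE had 14.1, 15.1 and 14.0 FPKM in control, 14.2, 14.7 and 14.6 at 24 h and 19.2, 17.1 and 18.0 at 48 h, where all libraries were higher than the other 6. SQLE rose by 0.31 ± 0.05 (limma, adjusted p = 0.00229), on 1105 to 1863 fragments per library. LSS, which closes the ring to lanosterol, was above control in all 48 h libraries but not called, at 0.17 ± 0.09 (95% interval -0.03 to 0.38, limma, adjusted p = 0.195). It was called when the third library at 24 h, which takes part in the shared estimate of the spread, was left out (adjusted p = 0.0385). The same omission brought PMVK below the threshold (adjusted p = 0.0252). In the fit to the 2 groups compared both were called too, LSS at an adjusted p of 0.0249 and PMVK at 0.0289.

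The other enzymes of the branch were not called at 48 h. CYP51A1, the lanosterol demethylase, differed from control by 0.14 ± 0.08 (95% interval -0.04 to 0.32), and 79.4% of its exon bases lie in another gene model on the same strand, so its level of 1.74 FPKM in control is uncertain. NSDHL, a sterol dehydrogenase that works with MSMO1, differed from control by 0.08 ± 0.05 (95% interval -0.03 to 0.18). That interval does not overlap with that of MSMO1 (0.53 to 0.74). HSD17B7, the ketone reductase of the same step, differed from control by 0.10 ± 0.08 (95% interval -0.07 to 0.28), and its reads may be split with its pseudogenes. EBP, the isomerase that follows, differed from control by 0.13 ± 0.15 with the widest interval of the group (-0.21 to 0.47). TM7SF2, a sterol reductase, lay below the filter. Its libraries had 0.431, 0.984 and 0.704 FPKM in control, 0.736, 0.813 and 0.683 at 24 h and 0.507, 0.615 and 0.506 at 48 h, on 30 to 67 fragments each. The control and 48 h values of TM7SF2 overlapped.

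**Figure D3:**
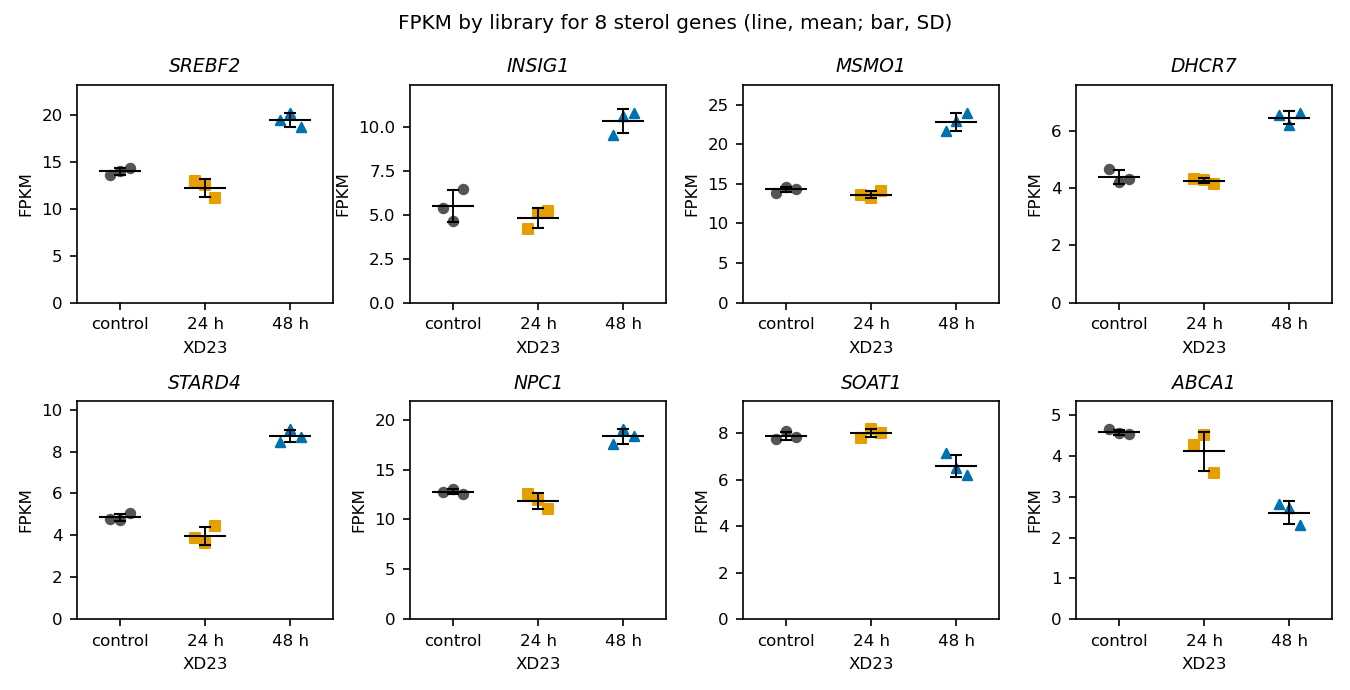
FPKM by library for 8 sterol genes in control and after 24 h and 48 h with XD23, each axis starting at 0, with the mean as a line and the SD as a bar (n = 3). SREBF2, INSIG1, MSMO1, DHCR7, STARD4 and NPC1 have their 3 libraries at 48 h above all others, and SOAT1 and ABCA1 below all others.

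Among the 5 genes of uptake, transport and esterification, 2 rose and 1 fell at 48 h, beside 13.3% and 15.2% of all genes. STARD4 (ENSG00000164211, chromosome 5, 111496033 to 111512590, minus strand) carries cholesterol between membranes in the cytosol. STARD4 had 4.80, 4.74 and 5.05 FPKM in control, 3.85, 3.63 and 4.42 at 24 h and 8.47, 9.06 and 8.68 at 48 h, so the 24 h libraries were lowest and the 48 h libraries highest, without overlap. It rose by 0.73 ± 0.06 at 48 h (limma, adjusted p = 0.000119), a 1.80-fold ratio of means on 446 to 1179 fragments per library. NPC1 (ENSG00000141458, chromosome 18, 23506184 to 23586898, minus strand) moves cholesterol out of late endosomes and lysosomes. NPC1 had 12.8, 13.0 and 12.5 FPKM in control, 12.5, 11.9 and 11.0 at 24 h and 17.6, 19.0 and 18.4 at 48 h, in the same order as STARD4, though the highest 24 h and the lowest control library were nearly equal. It rose by 0.49 ± 0.05 (limma, adjusted p = 0.000312).

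NPC2, the soluble protein that hands cholesterol to NPC1, was not called. It had 20.5, 19.3 and 18.7 FPKM in control and 16.5, 18.1 and 18.4 at 48 h, all 3 lower, with a difference of -0.13 ± 0.10 (95% interval -0.36 to 0.09, limma, adjusted p = 0.355). Its interval does not overlap with that of NPC1 (0.37 to 0.60). At 24 h NPC2 stood at 17.2, 18.1 and 23.3 FPKM, the highest value being that of the library that stood apart. SOAT1 had 7.73, 8.08 and 7.81 FPKM in control, 7.79, 8.15 and 8.02 at 24 h and 7.12, 6.49 and 6.18 at 48 h, the last group lying below both others. It fell from 7.88 ± 0.180 FPKM in control to 6.60 ± 0.478 FPKM at 48 h (SD, n = 3), a change of -0.23 ± 0.05 (limma, adjusted p = 0.0111). MYLIP overlapped between control and 48 h, with a difference of -0.03 ± 0.08 (95% interval -0.21 to 0.14).

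Of the export pumps, ABCA1 fell and ABCG1 was not called. ABCA1 (ENSG00000165029, chromosome 9, 104781002 to 104928237, minus strand) loads cholesterol onto lipid-poor apolipoproteins. ABCA1 had 4.66, 4.56 and 4.54 FPKM in control, 4.27, 4.51 and 3.59 at 24 h and 2.81, 2.73 and 2.30 at 48 h. Each group lay below the one before it, without overlap, though the highest 24 h and the lowest control library were nearly equal. The difference at 24 h, -0.13 ± 0.08 (95% interval -0.31 to 0.05), was not called. The change at 48 h was -0.63 ± 0.08 (limma, adjusted p = 0.000752), and the mean was 0.570 times that of control. ABCG1, which exports to mature lipoproteins, had 5.20, 5.89 and 4.96 FPKM in control, 5.99, 6.27 and 4.96 at 24 h and 4.45, 4.96 and 4.67 at 48 h. Its difference at 48 h was -0.16 ± 0.08 (95% interval -0.35 to 0.04, limma, adjusted p = 0.205). The ratio of ABCA1 to ABCG1 within a library averaged 0.862 ± 0.0761 in control, 0.719 ± 0.00512 at 24 h and 0.559 ± 0.0703 at 48 h (SD, n = 3).

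After 24 h none of the 29 tested genes was called by limma, against 0.00732% of all genes tested. At an unadjusted p under 0.05 there were 4, STARD4, SREBF2, ACAT2 and HMGCS1, all lower than control, against 7.43% of all genes. STARD4 had the lowest difference from control, -0.24 ± 0.06 (95% interval -0.38 to -0.10, limma, adjusted p = 0.476). The difference for SREBF2 was -0.19 ± 0.06 (95% interval -0.31 to -0.06) and that for INSIG1 -0.15 ± 0.11 (95% interval -0.40 to 0.10).

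The differences at 24 h were small and mostly negative. Of 29 genes 23 had a negative value, which 57.3% of all genes had, and the median was -0.06 against -0.02 over all genes. In 7 genes (SREBF2, ACAT2, MVK, MVD, NPC1, STARD4 and ABCA1) the 24 h libraries lay wholly below control, against 8.38% of all genes. NSDHL was the one gene wholly above, against 4.81%. Without the third library at 24 h, 15 genes lay wholly below control, against 15.8% of all genes, and 3 wholly above, against 11.8%, and again none was called by limma. With 2 libraries in place of 3, groups overlap less often by construction, as the shares over all genes show.

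Between 24 h and 48 h, 14 genes rose and 2 fell, where 16.0% and 16.3% of all tested genes did (32.3% in all). At an unadjusted p under 0.05 there were 19, against 43.2%. The 48 h libraries lay wholly above those at 24 h in 16 genes and wholly below in 2, against 23.1% of all genes each way. This comparison also tests whether the difference from control changed with time. It shares its 48 h libraries with the comparison against control, so the values stand beside each other and are not separate evidence. STARD4 rose by 0.97 ± 0.06 (limma, adjusted p = 2.81e-05) and INSIG1 by 0.96 ± 0.11 (limma, adjusted p = 0.00036). The median over the 29 genes was 0.23, against -0.01 over all genes tested. HSD17B7 was called here and not against control, at 0.23 ± 0.08 (limma, adjusted p = 0.0464). That call was lost in 9 of 16 alternatives, with adjusted p from 0.0628 to 0.124, among them leaving out control replicate 3 (0.0649), 24 h replicate 1 (0.116) or 2 (0.105), or 48 h replicate 1 (0.124), 2 (0.112) or 3 (0.0818). ABCG1 at -0.24 ± 0.08 missed the threshold (limma, adjusted p = 0.0588) and passed it in 4 alternatives, without the third library at 24 h (adjusted p = 0.00870), with the replicate block (0.0258), after quantile normalization (0.0262) and with the filter of 5 FPKM (0.0474). Without that library GGPS1 was also called (adjusted p = 0.0110), and without the first library at 24 h LSS was (adjusted p = 0.0148).

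**Figure D4:**
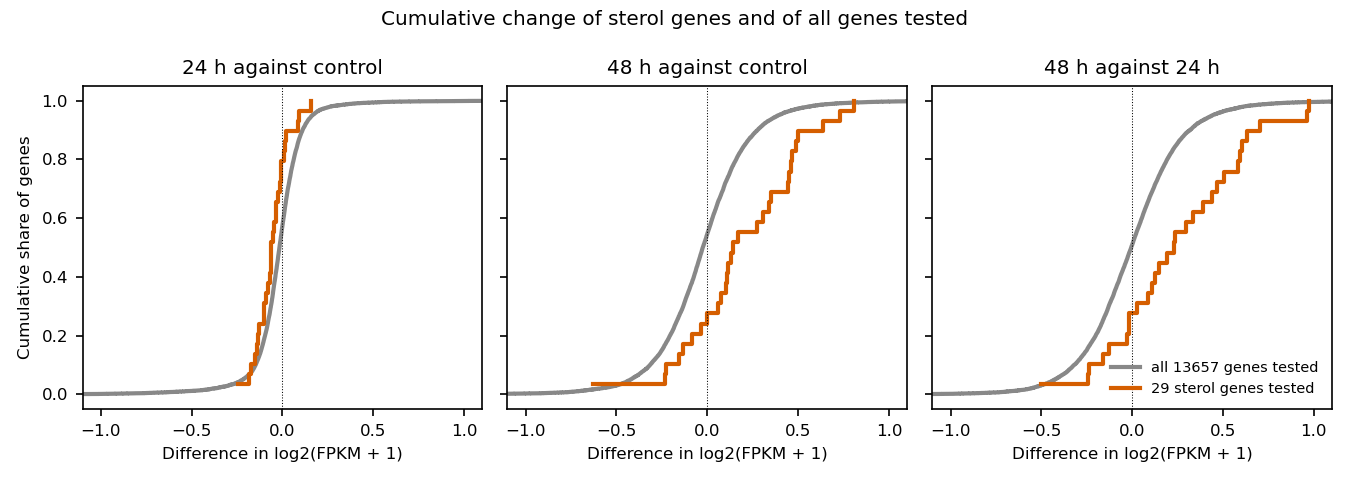
Cumulative share of genes by change in log2(FPKM + 1) for the 29 tested sterol genes (orange) and all 13657 tested genes (grey) in each comparison. The medians are -0.06 and -0.02 at 24 h, 0.14 and -0.02 at 48 h against control, and 0.23 and -0.01 for 48 h against 24 h.

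Genes that neighbour the pathway were read from 4 further lists, drawn up with earlier results of these data known. Among 15 genes that process SREBP or couple sterols to protein degradation, 3 rose and 4 fell at 48 h, with a median of 0.02, where 13.3% of all tested genes rose and 15.2% fell (28.5% in all). The site 1 and site 2 proteases MBTPS1 and MBTPS2 were not called (0.11 ± 0.06 and -0.15 ± 0.08), nor was SREBF1, which encodes the relative of SREBP2 for fatty acid genes (0.08 ± 0.08). TRIB1, a pseudokinase that directs protein degradation, rose by 0.60 ± 0.04, the ubiquitin ligase RNF145 by 0.29 ± 0.05 and the segregase VCP by 0.25 ± 0.04. ERLIN2, a cholesterol-binding protein of the endoplasmic reticulum, fell (-0.39 ± 0.05). Of 11 genes of the isoprenoid branches, 0 rose and 3 fell, a number of calls near the 28.5% of all genes. COQ2 (-0.33 ± 0.08) and PDSS1 (-0.31 ± 0.08) were among them and act in the synthesis of coenzyme Q. The PDSS1 call was lost on leaving out any of 4 libraries, replicates 1 and 3 of control and replicates 2 and 3 of 48 h (adjusted p from 0.0565 to 0.0666).

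Of 8 tested genes of oxysterols and LXR, 1 rose and 1 fell at 48 h, again near the 28.5% of all genes, and 3 others in the table (CH25H, CYP27A1 and CYP46A1) lay below the filter. NR1H2, which encodes LXRβ, rose from 4.89 ± 0.407 to 5.71 ± 0.105 FPKM (0.19 ± 0.05), and NR1H3, for LXRα, fell from 0.998 ± 0.0554 to 0.639 ± 0.0471 FPKM (-0.29 ± 0.09). Neither call was firm. NR1H2 lost it in 6 of 17 alternatives. Among them were leaving out control replicate 1 or 2, or any 1 library at 48 h (limma, adjusted p from 0.0587 to 0.0930). NR1H3 lost it in 10 of the 12 alternatives that tested it (limma, adjusted p up to 0.162). Among these were leaving out control replicate 2, or any 1 library at 48 h (0.0824 to 0.118). Of 23 tested genes of lipoprotein receptors, lysosomal release and sterol transfer, 4 rose and 4 fell, with a median of 0.03, beside 13.3% and 15.2% of all genes. LRP10, a receptor of the lipoprotein receptor family, rose by 0.30 ± 0.06, and GRAMD1A, which carries cholesterol from the plasma membrane, by 0.29 ± 0.07. The same 4 omissions ended the GRAMD1A call (adjusted p from 0.0578 to 0.0620). CAV1, the coat protein of caveolae, fell by 0.53 ± 0.05. The 4 lists had medians of 0.02, 0.00, 0.08 and 0.03, beside 0.14 for the 29 sterol genes and -0.02 for all genes, and these differences between lists were not tested.

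**Figure D5:**
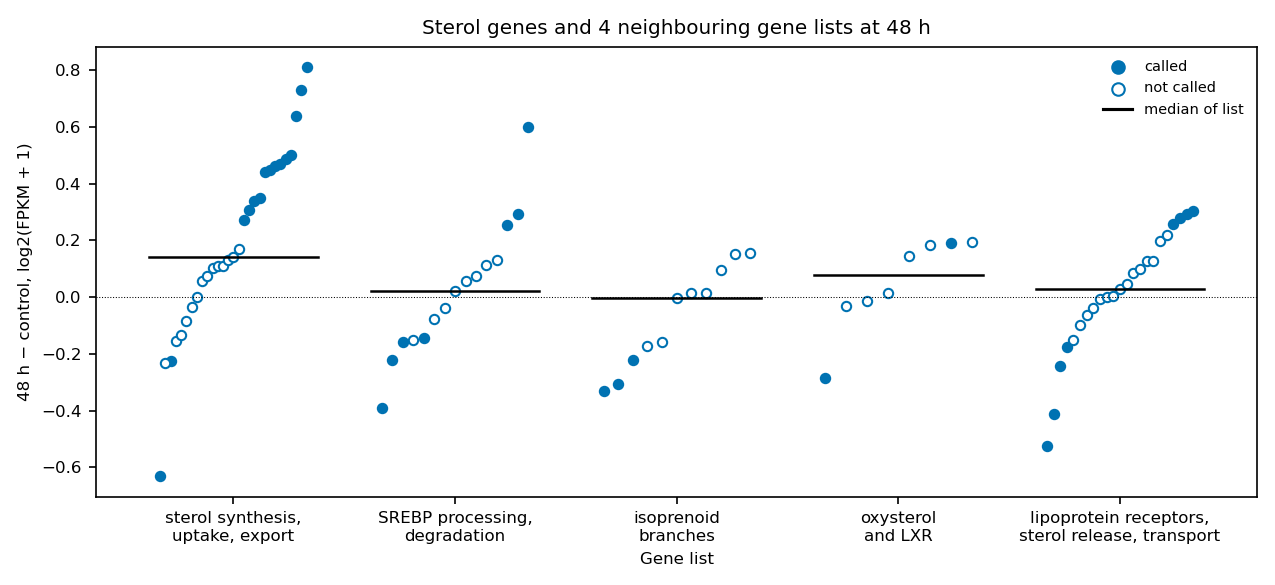
Change at 48 h against control in log2(FPKM + 1) for each tested gene of the sterol list and of 4 neighbouring lists, with filled points for called genes and a line at each list's median. The sterol genes have 13 filled points above 0 and 2 below, and no neighbouring list has more than 4 in either direction. The lists differ in size: 15 of 29 sterol genes are filled. In the neighbouring lists, in the order drawn, 7 of 15, 3 of 11, 2 of 8 and 8 of 23 are.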

How the data were processed

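Polyadenylated RNA of 9 libraries, 3 per group, was sequenced as paired ends per the labels' protocols. The authors deposited 1 table of FPKM for 36810 genes. The submitters' processing notes name HISAT2, featureCounts, Subread, DESeq2 and the build hg38. Their versions, their settings and the annotation were not given in the sources used here. Symbols matched 36724 genes. GENCODE 29 gave positions and exon lengths for 35585 genes, and with 1 total per library made the FPKM whole fragments within 0.001 for 20926 of them, 12 sterol genes included, which gave depth. Besides the overlaps already given, antisense genes share 3.71% of the exon bases of SREBF2 and 2.18% of those of STARD4, RMC1 shares 5.98% of those of NPC1, MMAB 4.72% of those of MVK, ISCA2 3.75% of those of NPC2, RUSC1-AS1 18.6% of those of FDPS, and other RNA genes 6.19% of those of LSS and 4.17% of those of FDFT1.

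Genes with at least 1 FPKM in 3 libraries (13657) were fitted as log2(FPKM + 1), 1 mean per group, with limma 3.58.1 in R 4.3.3 (trend, two-sided, Benjamini-Hochberg over all 13657, 6 residual degrees of freedom). A pseudocount of 1 understates changes of low genes. Errors beside changes are standard errors. Intervals are 95% from the model, per gene and not adjusted. The fit was tested on simulated data. The genes, the lists and the tests were chosen with earlier results of these data known. Values in every library are given for the 12 called genes with the highest absolute change at 48 h, for the gene below the filter, and for SQLE, SOAT1, PMVK, NPC2 and ABCG1, which were added after their values were seen. Of each neighbouring list at most 4 called genes are named by size of change, some others are not reported here, and MBTPS1, MBTPS2 and SREBF1 were added for their role. The alternatives tried were a pseudocount of 0.1 or 0.5, a filter of 5 FPKM or none, median-of-ratios scaling, quantile normalization, a replicate block, a fit to the 2 groups compared, a fold threshold and leaving out each library. The count of genes apart at 24 h without 1 library was added after seeing the data.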

Additional observations from a re-analysis of the deposited data

Results flagged for a closer look

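For 16 sterol genes the change from control differed between 24 h and 48 h, tested in limma as 48 h against 24 h on the log2 scale. It was higher at 48 h for SREBF2 (0.63), INSIG1 (0.96), INSIG2 (0.60), HMGCS1 (0.58), MVD (0.44), IDI1 (0.39), FDFT1 (0.34), SQLE (0.30), MSMO1 (0.70), HSD17B7 (0.23), SC5D (0.47), DHCR7 (0.50), NPC1 (0.59) and STARD4 (0.97). It was lower for SOAT1 (-0.24) and ABCA1 (-0.50). Over all tested genes 32.3% were called in this comparison. For SREBF2, MVD, NPC1 and STARD4 the 24 h libraries lay wholly below control and the 48 h libraries wholly above it. None of these genes was called at 24 h, and for MVD and NPC1 the highest 24 h and lowest control libraries were nearly equal. Over all genes 8.38% lay wholly below control at 24 h and 22.7% wholly above it at 48 h. The share of all genes with both was not counted. The HSD17B7 call (adjusted p = 0.0464) was lost in 9 of 16 alternatives.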

How the results depend on the processing

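All 15 sterol genes called at 48 h against control kept their direction and their call in each alternative that tested them other than the fold threshold, and no call was reversed in any comparison. At 24 h, where no sterol gene was called, some differences took either sign across alternatives. These were SCAP, PMVK, FDPS, GGPS1, SQLE, LSS, CYP51A1, SC5D, NPC2 and MYLIP, ranging from -0.17 (PMVK) to 0.07 (NPC2). Both signs also occurred at 48 h against control for FDPS, MYLIP and SCAP, from -0.12 (MYLIP) to 0.12 (FDPS). At 48 h against 24 h they occurred for EBP, MYLIP, NSDHL and SCAP, from -0.15 (EBP) to 0.07 (SCAP). These genes were not called in those comparisons. Leaving out 1 library gave 13 to 14 higher and 2 to 3 lower genes at 48 h against control, 13 to 15 and 2 to 3 at 48 h against 24 h, and 0 in both directions at 24 h. With a log2 change of at least 0.5 also required, 4 sterol genes were higher and 1 lower at 48 h against control (301 and 257 of all genes), and 8 and 1 at 48 h against 24 h (418 and 308 of all genes). The filter of 5 FPKM, which leaves out ABCA1, gave 1 lower gene at 48 h against control.

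Over all genes, 1811 were higher and 2080 lower at 48 h against control, with 1183 to 2365 and 1368 to 2771 when 1 library was left out, the lowest without 48 h replicate 2 (1183 and 1368). Without control replicate 1, 1386 were lower. At 24 h 0 genes were higher and 1 lower, with 2 higher without a filter, 2 and 2 after quantile normalization, 0 lower in the fit to the 2 groups compared, and 0 to 1 in each direction when 1 library was left out. With the replicate block, 13 sterol genes were higher and 2 lower at 48 h against control, 13 and 3 at 48 h against 24 h, and 0 of all genes lower at 24 h. Same-numbered libraries correlated at -0.057 to 0.239 in their deviations from group means, and differently numbered ones at -0.192 to 0.128. Deviations within a group sum to 0, so these values cannot decide whether a number marks a shared culture or day. The cause of the differences between alternatives was not tested. Low levels limit MVK, CYP51A1, HSD17B7, EBP and TM7SF2, all near or under 2 FPKM in control.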
